A study of Mus musculus with 2 samples.

Results

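Open-chromatin peaks that were at least 1500 bp wide and lay outside promoters were examined in regulatory T (Treg) cells of the mouse. They were chosen by 2 deposited values of the ATAC-seq peak lists, an annotation class that did not begin with the word promoter and a width of at least 1500 bp. They are called broad peaks here, and the remaining non-promoter peaks narrower peaks. In all, 2791 of the 54120 peaks of the series met the rule. The list from control cells (WT) held 1940 of them among 34440 peaks. The list from cells labelled as a conditional knockout of transketolase (cKO) held 851 among 19680. These were 10.2% of the 19101 non-promoter peaks in the WT list and 10.2% of the 8310 in the cKO list.

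The series has 1 library per group, made from 50000 sorted CD4+CD25+YFP+ cells of untreated C57BL/6 females aged 7 weeks, with spleen and lymph node as the labelled tissue. WT cells came from Foxp3cre/+ mice and cKO cells from Foxp3cre/+ TKTfl/fl mice, so both groups carry the Cre, which is driven from the Foxp3 locus and is therefore limited to cells that have expressed Foxp3. The labels also call the mice chimeric and do not say how many animals were pooled. Differences between the 2 lists therefore rest on single libraries and carry no p-value.

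ATAC-seq uses the Tn5 transposase to insert adapters where DNA is free of nucleosomes, and a peak caller then joins neighbouring insertions into an interval. Outside promoters such intervals are candidates for enhancers and other regulatory elements, and a wide interval can hold several adjacent elements. Transketolase moves carbon units between sugar phosphates and so links pentose phosphates to glycolysis without an oxidation step. Treg cells restrain other immune cells and depend on the transcription factor Foxp3 and on interleukin 2 received through Il2ra.

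Some of the broad peaks lay over gene starts that RefSeq holds, although the deposited annotation did not class them as promoters. Their classes included introns, exons, intergenic DNA, 5′ UTRs and regions downstream of genes. A whole RefSeq promoter window (250 bases before a gene start and 50 after it, GRCm38.p6, the assembly that mm10 names) fell inside 62 broad WT peaks, or 3.20% (95% Wilson interval 2.50 to 4.08), and inside 26 broad cKO peaks, or 3.06% (2.09 to 4.44). Among narrower peaks the shares were 0.822% in WT and 1.11% in cKO, and among WT promoter peaks of at least 1500 bp 62.4%. A wide interval holds a whole window more easily. Of the 62 broad WT peaks, 12 held the window of a gene other than a predicted model. The 250 bases before the start are shown for 6 of them, all in introns, because they differ widely in CpG content. Each is written 5′ to 3′ on the strand of its gene, and the capitals mark CpG dinucleotides.
Srebf1 window, chr11:60210472-60210721, minus strand: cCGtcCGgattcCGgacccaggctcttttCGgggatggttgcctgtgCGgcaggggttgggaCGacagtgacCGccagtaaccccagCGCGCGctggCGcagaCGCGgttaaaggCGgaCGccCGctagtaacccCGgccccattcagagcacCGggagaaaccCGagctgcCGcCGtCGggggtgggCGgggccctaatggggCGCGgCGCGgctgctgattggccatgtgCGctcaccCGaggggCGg
Ssh2 window, chr11:77348030-77348279, plus strand: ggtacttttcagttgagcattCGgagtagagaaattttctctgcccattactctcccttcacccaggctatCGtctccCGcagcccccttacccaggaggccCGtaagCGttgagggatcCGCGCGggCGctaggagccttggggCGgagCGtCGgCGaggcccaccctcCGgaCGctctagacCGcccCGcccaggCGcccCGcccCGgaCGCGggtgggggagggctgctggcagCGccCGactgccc
Tnrc6b window, chr15:80798360-80798609, plus strand: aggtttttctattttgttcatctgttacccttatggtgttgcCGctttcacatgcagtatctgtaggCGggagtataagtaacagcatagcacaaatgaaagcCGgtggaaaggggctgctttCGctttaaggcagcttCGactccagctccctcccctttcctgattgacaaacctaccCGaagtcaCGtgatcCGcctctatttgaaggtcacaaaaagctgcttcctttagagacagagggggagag
Usp6nl window, chr2:6352486-6352735, plus strand: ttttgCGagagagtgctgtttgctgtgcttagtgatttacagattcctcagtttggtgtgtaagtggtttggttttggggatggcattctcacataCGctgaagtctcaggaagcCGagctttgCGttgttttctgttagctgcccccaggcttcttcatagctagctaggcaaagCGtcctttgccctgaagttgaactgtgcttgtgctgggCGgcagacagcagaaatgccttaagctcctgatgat
Ikzf1 window, chr11:11689927-11690176, plus strand: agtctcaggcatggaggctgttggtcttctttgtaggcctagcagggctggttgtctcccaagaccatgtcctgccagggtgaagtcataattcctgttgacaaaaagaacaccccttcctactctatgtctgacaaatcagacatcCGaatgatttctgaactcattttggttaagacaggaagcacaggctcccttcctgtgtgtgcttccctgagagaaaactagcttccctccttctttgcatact
Trim30a window, chr7:104446126-104446375, minus strand: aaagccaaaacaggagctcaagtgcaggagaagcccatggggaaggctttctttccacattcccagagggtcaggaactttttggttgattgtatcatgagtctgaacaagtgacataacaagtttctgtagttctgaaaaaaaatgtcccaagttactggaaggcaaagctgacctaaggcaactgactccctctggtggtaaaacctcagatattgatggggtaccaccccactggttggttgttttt

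The Srebf1 window held 30 CpG dinucleotides and the Ssh2 window 24. Srebf1 encodes a transcription factor of lipid synthesis, and Ssh2 a phosphatase that acts on cofilin. The Tnrc6b window held 8, the Usp6nl window 6 and the Ikzf1 window 1, while the Trim30a window held 0. Tnrc6b encodes a partner of the Argonaute proteins, Ikzf1 a zinc-finger transcription factor of lymphocytes, and Trim30a a member of the TRIM family. Over the 70 windows inside broad WT peaks the median was 6 CpG, against 18 over the 2897 windows inside promoter peaks of the same minimum width, 6 over the 153 windows inside narrower WT peaks and 6 over all 32851 windows. Thus the windows in broad peaks were as CpG-poor in the median as RefSeq windows in general. Windows that overlapped within a peak were each counted.

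The peaks around these windows were also present in the cKO list. The Tnrc6b peak, assigned by the authors to the predicted model Gm49512, measured 3337 bp in WT and its cKO counterpart 3093 bp. The Usp6nl peak measured 3002 bp and its counterpart 2109 bp. The Ikzf1 peak was 1708 bp wide and its counterpart 1702 bp, so this pair was nearly equal. The Srebf1 peak, assigned to Mir6922, was 1541 bp wide in WT and 1443 bp in cKO, and the Ssh2 peak, assigned to Gm12346, was 1827 bp and 1315 bp wide. The Trim30a peak was 1609 bp wide in WT and 1153 bp in cKO.

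Short motifs were searched on both strands of the same 250 bases. The GC box GGGCGG was present in 25.7% of the 70 windows in broad WT peaks, in 63.2% of those in broad promoter peaks and in 32.7% of all windows. The RUNX motif TGTGGT was present in 20%, 9.46% and 14.0% of these sets. The ETS motif GGAAGT was present in 15.7%, 23.5% and 19.7%, and the AP-1 motif TGANTCA in 7.14%, 3.69% and 6.75%. The 153 windows in narrower WT peaks gave 24.2% for the GC box, 24.2% for RUNX, 22.2% for ETS and 11.1% for AP-1, so lower GC-box and higher RUNX and AP-1 shares than in promoter peaks were found in windows of narrower peaks too. With 70 windows the intervals were wide: 12.3 to 30.8% for the RUNX letters and 16.9 to 37.0% for the GC box. They cover counting error only. Some of the windows overlapped within a single peak, as at the models Gm3752 and Gm38418, so the windows are not independent. No RUNX, ETS or AP-1 letters fell in the 6 printed windows, a statement about these stretches only.

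A RefSeq start lay within 250 bp of the peak centre in 1.34% of broad WT peaks and in 0.868% of narrower ones. The gap of 0.472 points (95% Newcombe interval 0.0221 to 1.10) shrank to 0.0825 points (−0.497 to 0.661) among peaks of like score, an interval that included 0. In cKO the shares were 0.705% (6 of 851) and 1.01%, a gap of −0.300 points (−0.758 to 0.549) that was −0.946 points (−1.70 to −0.187) within score bins, the opposite direction from WT. Among WT promoter peaks of at least 1500 bp the share was 32.2%.

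Width chose the peaks, so their widths are given as a description. The median was 1772.5 bp in WT and 1739 bp in cKO, the upper quartiles were 2070 and 2001 bp, and 558 WT and 214 cKO peaks reached 2000 bp. The threshold cut a continuous distribution. Just inside it in WT lay peaks at Gm7985, in an intron of Daam1, and at Fntb, an intron of a farnesyltransferase gene, both of 1500 bp. Just outside lay peaks of 1499 bp at Rnft1 and Mir6537. In cKO the nearest peaks inside measured 1501 bp at 9530020I12Rik and 1502 bp at Gm11704, and those outside 1499 bp at Slc2a3, which encodes a glucose transporter, and 1498 bp at Slc45a3.

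**Figure D1:**
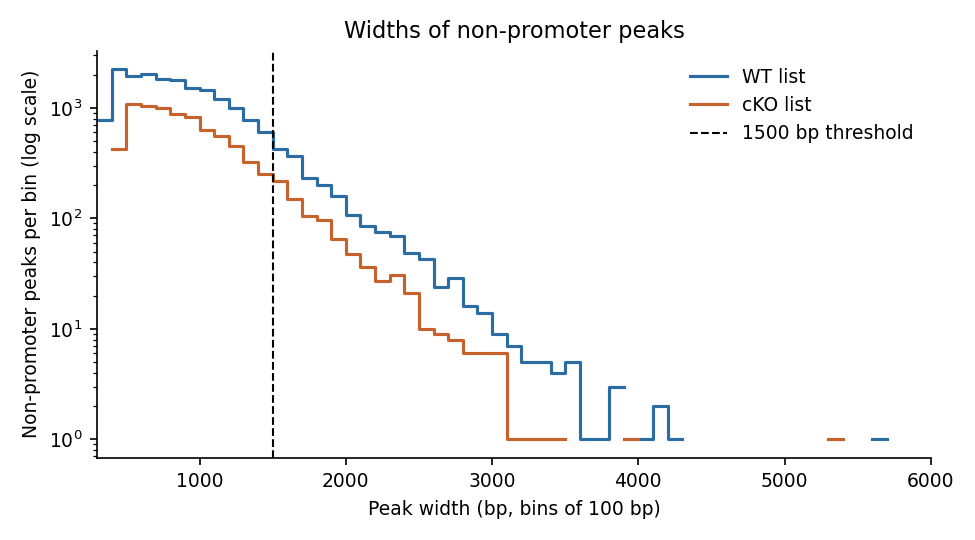
Number of non-promoter peaks (log scale) by peak width in bins of 100 bp, for the WT and the cKO list. Counts fall smoothly across the 1500 bp threshold, with 1940 WT and 851 cKO peaks to its right and the widest at 5681 and 5347 bp.

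The widest WT peak spanned 5681 bp at chr11:86810780-86816460 (mm10), in intergenic DNA 3034 bp upstream of Dhx40, a putative RNA helicase gene. It covered 2 separate cKO peaks, the more overlapping of which was 2267 bp wide. Next came 4285 bp in intron 1 of Ago2, the Argonaute protein at the centre of microRNA silencing, where the cKO peak measured 1660 bp. A peak of 4179 bp in intron 2 of Hivep2, assigned to the model Gm26835, had a cKO counterpart of 3923 bp. Stk17b, which encodes a kinase that restrains T cell receptor signalling, had a 4107 bp peak that covered 2 cKO peaks, and the noncoding RNA gene Lncpint had 1 of 4031 bp against 2333 bp. These 5 peaks all met a cKO peak. Where they met a single one, at Ago2, Hivep2 and Lncpint, it was close in width only at Hivep2. At Dhx40 and Stk17b the width of 1 cKO peak does not give the whole cKO extent. The 2 broad cKO peaks assigned to Stk17b measured 1552 and 1872 bp.

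The same spread ran through the other wide peaks. At the 3′ end of Tnfaip3, the A20 gene that brakes NF-κB signalling, the WT peak was 3832 bp and the cKO peak 3056 bp wide. In intron 3 of Fyn, a Src-family kinase of the T cell receptor pathway, it was 3577 against 1470 bp. In intron 1 of Ptk2b, which encodes the kinase Pyk2, the WT peak of 3418 bp met 2 cKO peaks, the larger overlap being with a peak of 616 bp. The peak upstream of Msl1, a chromatin regulator gene, was 3403 bp wide in WT and 3378 bp in cKO. Intron 1 of Tmem154 gave 3295 and 2986 bp. Bcor, which encodes a BCL6 co-repressor, gave 3350 and 1977 bp, and Rem2, a GTPase gene, 3370 and 786 bp.

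In the cKO list the widest peak measured 5347 bp, at chr11:3100456-3105802, 20102 bp from Pisd-ps1, and met 2 WT peaks, of which the more overlapping was 2154 bp wide. It lies near the centromeric end of its chromosome, where repeats abound. The peak in intron 2 of Hivep2 followed, then 1 of 3498 bp assigned to the predicted model Gm33843, and then the Msl1 peak. An intergenic peak assigned to Tyrobp, which encodes an adaptor of natural killer and myeloid receptors, was 3092 bp wide in cKO and 3192 bp in WT. A peak over exon 4 of Crbn, the cereblon gene, was 3042 and 3175 bp wide, and a peak in intron 10 of Tmprss6 2997 and 3163 bp. Near Ccr1, a chemokine receptor gene, the values were 2887 and 2991 bp. At Bex6 a cKO peak of 2853 bp met 2 WT peaks, the more overlapping of 1493 bp.

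Broad peaks scored higher than narrower ones in the median, but wide was not the same as high-scoring. The authors gave each peak a score whose meaning is not stated, so it was used only as a rank within its own list, with 100 as the highest percentile. Broad WT peaks had a median score percentile of 62.3 (order-statistic 95% interval 60.7 to 63.3), against 34.5 for narrower peaks and 78.9 for promoter peaks of at least 1500 bp. In cKO the 3 medians were 57.6, 29.5 and 75.7. In WT 5.57% of broad peaks stood in the top 10% of the list and 0.773% in the bottom 10%, where narrower peaks had 1.17% and 15.3%. In cKO 11.05% of broad peaks stood in the top 10% and 2.35% in the bottom 10%, where narrower peaks had 1.81% and 18.46%. Above the median score of the list lay 69.33% of broad WT and 59.58% of broad cKO peaks, against 29.99% and 24.72% of narrower ones. The 45 WT peaks of at least 3000 bp had a median percentile of 66.8. Single wide peaks could lie lower. The Tnfaip3 peak stood at percentile 40.8 and the Fyn peak at 37.0. Of the 15 widest WT peaks with a named gene 1, at Lrrc8d, was above 90 (91.9).

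The broad peak with the top score in each list was not its widest. It was still wider than the upper quartile of broad peaks, 2070 bp in WT and 2001 bp in cKO. Tmem267 had the top score among broad WT peaks of named genes, rank 11 of the whole list with 2162 bp, and rank 8 in cKO with 1685 bp. The model AC173344.1 ranked 12 in WT and 7 in cKO, with 2431 and 2397 bp. Of the 10 highest-scoring named genes in each list, 6 were in both: Tmem267, Tmpo, Eef2k, Apoa1, Ablim1 and Zfp692. Tmpo encodes a nuclear lamina protein, Eef2k the kinase of elongation factor 2, and Ablim1 an actin-binding protein. The peak assigned to Apoa1, an apolipoprotein gene, lay 51700 bp from it, in intron 4 of Sik3, a salt-inducible kinase gene, and measured 1876 bp in WT and 1765 bp in cKO. Mnt, a MAX-binding repressor gene, ranked 218 in WT with an exonic peak of 1739 bp. In cKO, Vmn1r-ps2 ranked 58 with a peak that, like the Pisd-ps1 peak, lies near the centromeric end of its chromosome.

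A peak in the other list covered at least 1 bp of most broad peaks. In WT, 1684 of 1940 broad peaks met a cKO peak, which is 86.8% (95% Wilson interval 85.2 to 88.2), beside 41.4% of all WT non-promoter peaks and 36.3% of narrower ones. The gap between broad and narrower was 50.5 points (Newcombe 48.8 to 52.1). Within 10 score bins of the list, each with an equal number of peaks, it was 22.0 points (20.6 to 23.5). A wide interval meets another more easily, and when the centre of the WT peak had to lie inside a cKO peak the gap within score bins was 16.6 points (14.98 to 18.3). In the other direction 850 of 851 broad cKO peaks met a WT peak, 99.9% (99.3 to 100), beside 95.5% of all cKO non-promoter peaks. The exception, 1506 bp wide at chrX:52885114-52886619, was assigned to the model Gm6539 and stood at score percentile 15.6. With equal numbers of peaks taken from each list by score, the order of the lists turned, to 94.9% for WT and 89.7% for cKO. The intervals cover counting error only, and neighbouring peaks are not independent.

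The overlap of broad WT peaks followed the score. Only 2 of 15 met a cKO peak in the lowest bin of the WT list, 43.8% in bin 2, 77.0% in bin 5, 97.1% in bin 7 and 100% in the top 2 bins. Narrower peaks gave 6.55, 11.5, 39.5, 77.1 and, for the top 2, 98.2 and 97.5%. The share was thus higher for broad peaks in each of the 10 bins, and close to that of narrower peaks at the top. Sequencing depth is unknown for both libraries, so a site without a cKO peak cannot be told from 1 that stayed under the caller's threshold.

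**Figure D2:**
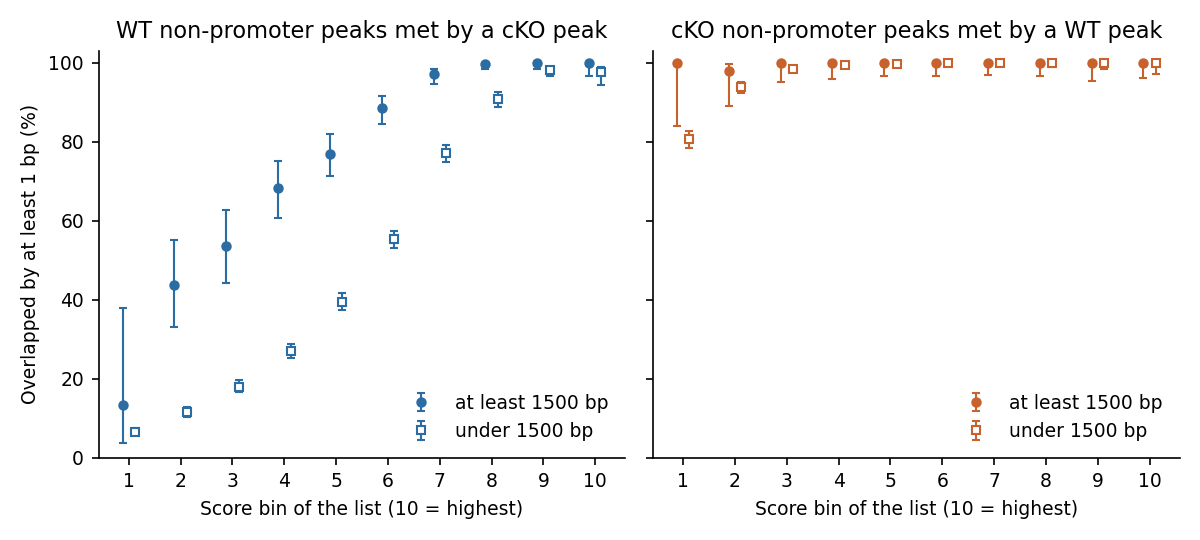
Share of non-promoter peaks met by a peak of the other list, by score bin of the list (10 bins of equal size), for peaks of at least 1500 bp (filled) and under 1500 bp (open). Bars are 95% Wilson intervals. In WT broad peaks rise from 13.3% in the lowest bin to 100% in the top 2, and in cKO they are at 97.9% or above in all 10.

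The 256 broad WT peaks that met no cKO peak were low in score, with a median percentile of 34.1 against 65.7 for the others, and their median width was 1681.5 against 1793 bp. None was in the top 2 bins. A single peak stood in bin 8, an intergenic peak of 1585 bp assigned to Gm9522, at percentile 77.5. Among named genes the highest was a peak of 1846 bp in intron 1 of Frs2, an adaptor of growth factor receptors, at percentile 62.5. Slco3a1, a transporter gene, followed at 60.0 and Dusp10, which encodes a phosphatase of p38 and JNK kinases, at 59.8. Zbtb1, a transcription factor gene required for lymphocyte development, stood at 59.6, and Cd84, a SLAM-family receptor gene, at 59.5. Further down the same list came Scimp, Rab22a, Mcu (the mitochondrial calcium uniporter), Pla2g1b and H2afy3, between 57.7 and 54.0. The widest peak without a counterpart measured 2929 bp.

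A broad counterpart is 1 kind of overlap, so its share could not exceed that of any overlap. The cKO counterpart was also a broad non-promoter peak for 720 WT peaks, 37.1% of all 1940 (35.0 to 39.3) and 42.8% of the 1684 with any overlap. For cKO peaks the WT counterpart was broad in 721 of 851, 84.7% (82.2 to 87.0). Nearly the same pairs make up both counts. The cKO list held only 851 broad peaks, which limits the share that the 1940 WT peaks could reach. The median width of the cKO counterparts of broad WT peaks was 1422 bp, 374 bp less in the median pair, and the cKO peak was the narrower of the pair in 94.0% and lay wholly inside the WT peak in 77.7%. For broad cKO peaks the WT counterpart had a median of 1912.5 bp and was the narrower in 26.1%. Either direction starts from peaks chosen for their width in 1 list. Narrower WT peaks that met a cKO peak were themselves wider than it in 79.9%. Genotype, sequencing depth and peak-calling conditions cannot be told apart as sources of these widths, with 1 library a group.

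**Figure D3:**
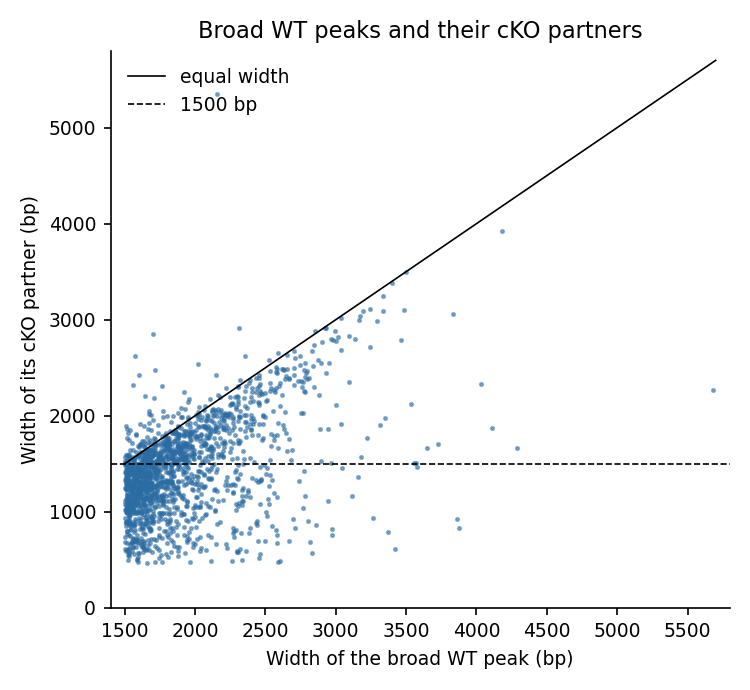
Width in bp of each broad WT peak with an overlap (1684 points) against the width of its cKO counterpart. The solid line marks equal width and the dashed line 1500 bp. Of these points 94.0% lie below equality and 720 have a counterpart that is itself a broad non-promoter peak.

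The wider the WT peak, the more often it had a counterpart, and a broad one. The overlap was 83.2% for 925 peaks of 1500 to 1749 bp, 86.7% for 457 of 1750 to 1999 bp, 91.7% for 387 of 2000 to 2499 bp, 93.7% for 126 of 2500 to 2999 bp and 100% for 45 of at least 3000 bp. A broad counterpart was found for 17.6, 44.6, 59.4, 69.0 and 80.0% of them. The median score percentile rose with width too, from 59.9 to 66.8. The widest group held only 45 peaks, and its interval for overlap ran from 92.1 to 100%. A wider interval also meets another more easily, and the rule of the peak centre was not applied to these width groups.

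A wide interval of 1 list could be split in the other. Among broad WT peaks 23 met 2 or more cKO peaks, Dhx40, Stk17b, Ptk2b and Lrrc8d among them, and 28 broad cKO peaks met 2 or more WT peaks. No narrower WT peak of 17161 met 2, and 7 of 7459 narrower cKO peaks met 2 or more. A wide interval can span 2 peaks more easily, so this contrast follows in part from the width rule. Conversely, for 129 broad cKO peaks the WT peak with the longest overlap was not a broad non-promoter peak. In 123 that WT peak was under 1500 bp, and in 6 it carried a promoter class. Of the 129, 22 met 2 or more WT peaks, and only the longest overlap was considered. The 6 include the cKO peak of 2194 bp assigned to Arl5c, whose WT counterpart measured 2270 bp.

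By position, broad and narrower peaks were close. Introns held 46.6% of broad and 47.4% of narrower WT peaks, a gap of −0.829 points (−3.16 to 1.52). Within score bins the same gap was 2.88 points (0.439 to 5.32), so its direction depended on whether peaks of like score were compared. In cKO the plain gap was −0.464 points and the gap within score bins 3.51 points (−0.151 to 7.17). Intergenic DNA held 34.7% of broad and 37.4% of narrower WT peaks (−2.68 points, −4.89 to −0.420), and 35.5% and 39.0% in cKO. Exons held 10.6% against 8.75% in WT, and 5′ UTRs 1.19% against 0.373%. A wide interval touches a small feature such as an exon or UTR more easily. How the annotator chose among several touched features is not stated, so these gaps may follow from width. The median distance to the assigned start site was 15236.5 bp for broad and 14781 bp for narrower WT peaks. None lay within 3 kb, since the promoter class takes those: the nearest broad peak was 3002 bp away in WT and 3007 bp in cKO.

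Within introns, broad WT peaks fell into the first intron in 384 of 904 cases, 42.5%, against 35.4% of narrower intronic peaks. The gap was 7.12 points (3.77 to 10.5), or 5.66 points (2.10 to 9.22) within score bins. In cKO the shares were 42.4 and 39.0%, and the interval of the gap, −1.63 to 8.61 points, included 0. Broad peaks also had closer company: another non-promoter peak lay within 10 kb of 52.3% of broad and 43.2% of narrower WT peaks, a gap of 9.10 points (6.75 to 11.4) that was 6.60 points (4.14 to 9.07) within score bins. In cKO the shares were 34.9 and 28.4%, with a gap of 4.27 points (0.734 to 7.81) within score bins.

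The gene named for a peak often was not the gene around it. Of 1109 broad WT peaks in exons or introns, 539 (48.6%) were assigned to a gene other than the one they lay in, and 45.4% of all broad WT peaks were assigned to a predicted model. Narrower peaks gave 49.7 and 44.6%. Genes below are those assigned by the authors unless the gene that holds the intron is named.

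Broad WT peaks were assigned to 1617 genes, 15.5% of the 10450 genes with a non-promoter peak, and broad cKO peaks to 754, 13.7% of 5488. Of these, 656 genes had a broad peak in both lists, which is 40.6% of the WT genes and 87.0% of the cKO genes. The same 656 genes make up both shares, which differ only by the totals of 1617 and 754. In WT 242 genes had 2 or more, and in cKO 81.

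Prkch, which encodes the eta form of protein kinase C, had the most, with 7 broad peaks among 17 non-promoter peaks in WT. Their widths ran from 1534 to 2592 bp. All 7 met a cKO peak, but only 3, all in intron 1, met a broad one, with widths of 2592, 2205 and 2580 bp in WT and 1668, 1720 and 2444 bp in cKO. The 4 in intron 2 had cKO counterparts of 893 to 1308 bp. The 3 in intron 1 stood at WT score percentiles of 69.3, 83.3 and 74.0, and those in intron 2 between 19.0 and 64.8.

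Bcl11b, a transcription factor that maintains T cell identity, had 6 broad WT peaks among 18, from 1558 to 3314 bp. The 3 with broad cKO counterparts lay in each of its 3 introns and measured 1935, 2706 and 3314 bp in WT against 1687, 2322 and 1900 bp. Another, of 1620 bp at score percentile 5.8, met no cKO peak. Bach2, a repressor that favours naive and resting T cells, had 5 broad WT peaks and 4 in cKO, the most of any named gene there. They measured 2089, 2266, 1700 and 3242 bp in WT and 2001, 1721, 1677 and 2719 bp in cKO. The remaining WT peak, 2045 bp in intron 3, met a cKO peak of 621 bp. A sixth WT peak of 1881 bp inside Bach2 was assigned to the model Gm24371.

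Arid5b, a chromatin regulator gene, had 5 broad WT peaks, 2 of them with broad counterparts, and Stk39, a kinase gene of ion transport control, had 5 with 1. In cKO the genes with 3 were Ankrd11, Bcl11b, Inpp4b, Lncpint, Lrrc8d, Pecam1, Pip4k2a, Prkch and Sept9. Inpp4b encodes a phosphatase of phosphoinositides, and its 3 cKO peaks of 1505, 2301 and 1948 bp faced WT peaks of 1747, 2847 and 2207 bp. Sept9, a septin gene, had cKO peaks of 2300, 1800 and 1642 bp in intron 3 and WT peaks of 2761, 2284 and 1560 bp. At Pip4k2a, a lipid kinase gene, 1 of the 3 cKO peaks, 2617 bp wide, was wider than its WT counterpart of 2353 bp.

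Fyn, as the gene around the peak, held 6 broad WT peaks of 1689 to 3577 bp and 2 broad cKO peaks of 1508 and 2251 bp. Prkch likewise held 8 in WT and 3 in cKO.

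**Figure D4:**
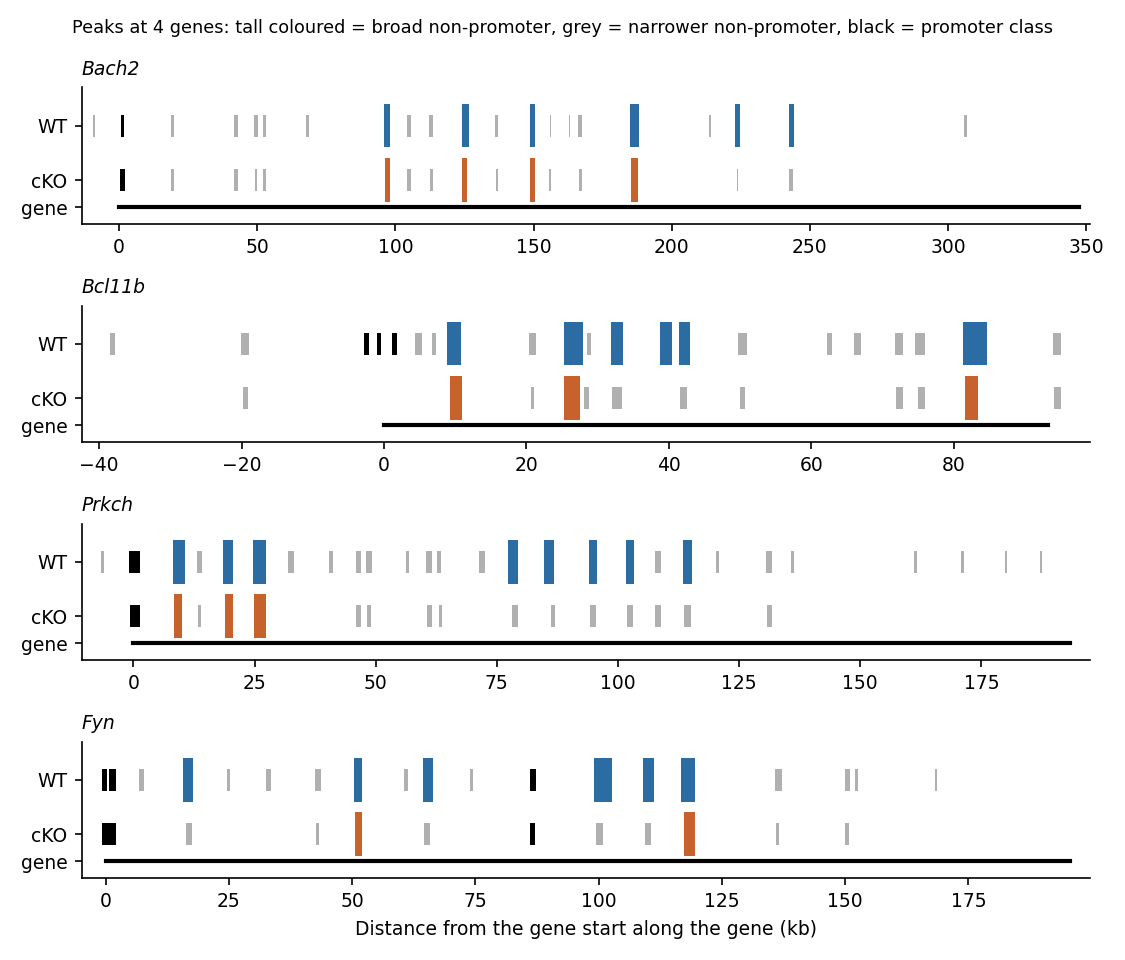
Peaks at Bach2, Bcl11b, Prkch and Fyn by distance in kb from the start of the longest transcript assigned in either list, WT above cKO, with broad non-promoter peaks coloured and tall, narrower ones grey and promoter-class peaks black. The black bar is the gene. WT shows 6, 6, 8 and 6 broad peaks and cKO 4, 3, 3 and 2, and most other WT broad peaks face a grey cKO peak.

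Gene lists for T cell functions were read beside the share of all non-promoter peaks that were broad, 10.2% in either list. Among 115 WT non-promoter peaks of T cell receptor and co-stimulation genes, 23 were broad (20%), and 17 of the 32 genes with such a peak had a broad one. The cKO list gave 11 of 58 (19.0%). Of the 23 WT peaks, 22 met a cKO peak and 10 a broad one. Upstream of Cd2, an adhesion receptor gene, the peak was 2408 bp wide in WT and 2250 bp in cKO. Plcg1, the phospholipase of the receptor pathway, had 2467 and 2240 bp in intron 2, and Ptpn22, a phosphatase that limits receptor signalling, 2226 and 2003 bp.

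Activation-induced genes had 18 broad peaks of 89 in WT (20.2%) and 10 of 53 in cKO (18.9%). All 10 in cKO had a broad WT counterpart. Besides Tnfaip3 the widest were at Egr1, an immediate-early transcription factor gene, with 2533 and 2152 bp in WT against 2259 and 2040 bp, and at Nfkbia, which encodes the NF-κB inhibitor IκBα, with 2474 against 1744 bp. Btg2, an antiproliferative gene, gave 2407 and 2291 bp, Fos, a subunit of AP-1, 2321 and 2050 bp, and Pim1, a kinase gene, 2183 and 2058 bp.

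Treg identity and suppression genes stood at the background, with 10 broad of 96 WT peaks (10.4%) and 5 of 45 in cKO (11.1%). Il2ra had a broad peak of 2458 bp upstream of the gene at chr2:11634962-11637419 and its cKO counterpart was 2254 bp. Entpd1, which encodes the ectonucleotidase CD39, had a WT peak of 2575 bp in intron 1 that met a cKO peak of 806 bp, and a second of 1670 bp that met 1 of 1419 bp. Nrp1, a surface receptor of thymus-derived Treg cells, gave 1841 and 1565 bp. Itgae, the integrin CD103, gave 1651 and 1618 bp in intron 2. At Prdm1, which encodes Blimp-1, the cKO peak was the broad one, with 1932 bp in cKO and 1286 bp in WT. No broad peak was assigned to Foxp3, Ctla4 or Ikzf2 in either list.

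T cell transcription factors had 25 broad peaks of 194 in WT (12.9%) and 11 of 111 in cKO (9.91%). Bach2 and Bcl11b supplied 11 of the 25. A 2548 bp peak in intron 1 of Nfkb1, the NF-κB p105 gene, met no cKO peak and stood at percentile 40.8. Tox, a factor of T cell exhaustion and development, had 3 broad peaks in intron 1, of 2525, 1897 and 1613 bp, whose cKO counterparts were 1085 bp, none and 1069 bp. At Stat5a, the signal transducer of interleukin 2, a cKO peak of 1955 bp in an exon of the neighbouring Stat3 met 2 WT peaks, the more overlapping of 703 bp.

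Naive-state and homing genes had 12 broad peaks of 88 in WT (13.6%), 1 for each of 12 genes, and 9 of 47 in cKO (19.1%). Ccr7, a chemokine receptor for entry into lymph nodes, had 1 pair of 2400 and 2198 bp and a second that was broad in cKO only, 1860 against 1286 bp in WT. Cxcr4, another chemokine receptor gene, had a broad peak in cKO, 1584 against 1344 bp, as did Bcl2, the survival gene, 1522 against 1287 bp. Ccr6 gave 2217 and 1847 bp.

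**Figure D5:**
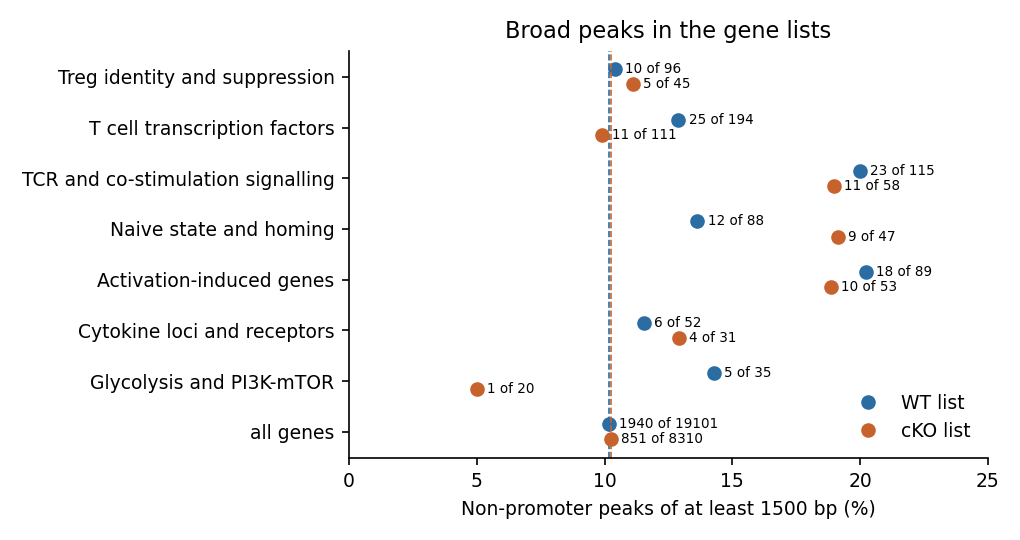
Share of non-promoter peaks that were at least 1500 bp wide, by gene list, with the counts beside each point and dashed lines at the share over all genes (10.2% in either list). Lists with fewer than 20 non-promoter peaks are left out, housekeeping genes (28.6 and 14.3%) among them. T cell receptor and activation-induced genes lie near 20% in both lists, and Treg identity genes lie at 10.4 and 11.1%.

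Housekeeping genes, with few non-promoter peaks, had 4 broad of 14 in WT (28.6%) and 1 of 7 in cKO (14.3%), so in WT their share was above those of the T cell lists. Cytokine loci and receptors had 6 of 52 in WT (11.5%) and 4 of 31 in cKO (12.9%). They included Smad3, a mediator of TGF-β signals, with 2184 and 1974 bp, and its inhibitor Smad7 with 1951 bp in WT and 2139 bp in cKO. Pentose phosphate pathway genes had none among 9 non-promoter peaks in WT and none among 3 in cKO. For a count of 0 among 9, a rough upper limit is 33.3% (3 counts of 9), which is loose for so few peaks.

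Glycolysis and PI3K-mTOR genes had 5 broad peaks of 35 in WT (14.3%) and 1 of 20 in cKO. In WT they were at Hk1, the hexokinase of entry into glycolysis, with 2227 bp against 621 bp in cKO, and Hif1a, the hypoxia regulator, with 2145 against 1010 bp. Pfkp, a phosphofructokinase gene, gave 1769 and 992 bp. Pik3cd, a PI3-kinase subunit gene, had 1829 and 1610 bp, and Slc2a3 had 1784 and 1499 bp, 1 base pair short of the threshold.

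Tkt itself, the targeted gene, had a single peak in each list, at its promoter, of 1485 bp in WT and 1372 bp in cKO. It is too narrow and too close to the start to be counted here, and a promoter peak does not check the deletion. The lists show 5 of 6 Treg markers with a peak in either library, Tnfrsf18 being without 1, and 4 of 5 T cell markers, with Cd3g without. Markers of other cells also had peaks. B cell markers had a peak of any class at 3 of 6 genes in WT and 2 of 6 in cKO, CD8 T and natural killer markers at 3 and 4 of 6, myeloid markers at 2 of 6 in either list, and erythroid and stromal markers at 4 and 5 of 6. Of their few non-promoter peaks, 1 of 4 B cell peaks in WT was broad (25%), a peak of 2463 bp assigned to Cd79a, and 0 of 1 in cKO. Among erythroid and stromal markers 4 of 7 were broad in WT (57.1%) and 3 of 6 in cKO (50%), all assigned to Pecam1, an adhesion molecule of endothelium that T cells can also express. CD8 T and natural killer markers had 0 of 4 in WT and 0 of 2 in cKO, and myeloid markers 0 of 1 in either list. These peaks are too few to set a useful limit on the share. A peak says nothing of how many cells gave it, and the part of other cells in these results was not tested. The mice are labelled female, yet chromosome Y held 7 non-promoter peaks in WT and 8 in cKO. Of these, 5 and 4 were broad (71.4 and 50%), beside 10.2% over all chromosomes in either list. Leaving chromosome Y out, a setting chosen after seeing the data, kept the 11 main values within their own intervals or within 1.5 times their counts.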

How the data were processed

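The 2 deposited peak lists, 1 per library, give position, width, a score, annotation class, assigned gene and distance to its start site. The submitters' processing notes name BWA, MACS2, Trimmomatic and FastQC with build mm10. Their versions and settings, the handling of duplicates and of the Tn5 offset, any blacklist and the annotator are not stated in the labels. The score is the authors' deposited value of unstated meaning and was used as a rank within its list. Read depth is unknown, so precision could not be set from it.

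Non-promoter peaks of at least 1500 bp were compared with narrower ones in python 3.11.15 (pandas 2.3.3, scipy 1.17.1). A peak overlapped if it shared at least 1 bp with the other list, and its counterpart was the peak with the longest overlap. Overlaps were checked against bedtools 2.31.1, and the computation was tested on simulated data. Shares carry 95% Wilson and gaps Newcombe intervals. Gaps were also averaged within 10 equal score bins. No p-value was computed.

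Named were the 15 widest WT and 10 widest cKO peaks, the 10 highest scores in each list, the 5 genes with most peaks (ties kept), the 10 highest-scoring peaks without overlap and up to 4 examples per gene list, passing over predicted models in these rankings, and the peaks beside the threshold. Genes around a peak, predicted models named elsewhere and other examples were chosen after values were seen. Members and the 13 gene lists were chosen with earlier results of these data known. RefSeq promoter windows (GRCm38.p6) were matched by position. Some items are not reported here.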

Additional observations from a re-analysis of the deposited data

How the results depend on the processing

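No paired analysis was possible because the lists come from single libraries, and leaving out a replicate was not an option. No gap below changed sign, but the order of the lists in overlap, higher in cKO as reported, turned with equal numbers of peaks. At 2000 bp or more there were 558 WT and 214 cKO peaks, 44 and 9 genes had 2 or more, the intron share in WT was 43.2% and the median distance to a start site 13602 bp. The WT overlap was then 92.8%, the cKO overlap 100%, the gap to narrower peaks 53.0 points and the share with an equally broad counterpart 31.4%. Over all genes, 558 of 19101 non-promoter peaks in WT and 214 of 8310 in cKO reached 2000 bp. Treg identity genes had 3 of 96 in WT and 1 of 45 in cKO. T cell transcription factors had 8 of 194 and 4 of 111, and T cell receptor genes 9 of 115 and 6 of 58. Naive-state genes had 3 of 88 and 2 of 47, and activation-induced genes 9 of 89 and 6 of 53. Cytokine genes had 1 of 52 and 1 of 31, and glycolysis genes 2 of 35 and 0 of 20. Erythroid and stromal markers had 1 of 7, at Pecam1, and 0 of 6, and housekeeping genes 2 of 14 and 0 of 7. With only the upper part of each list by score (above its median), 507 cKO peaks and 150 WT and 36 cKO genes with 2 or more remained. The WT overlap was then 56.8%, the gap 26.8 points, or 14.1 within score bins, and the share with a broad counterpart 33.9%. With equal numbers of peaks in both lists, taken by score, the WT overlap was 94.9%, the cKO overlap 89.7%, the gap 28.1 points, or 18.5 within score bins, and the share with a broad counterpart 44.0%. With the peak centre inside a peak of the other list, the WT overlap was 80.3%, the cKO overlap 97.3% and the gap 45.5 points, or 16.6 within score bins. Beyond 5 kb from a start site the median distance was 17097 bp. Without predicted models 135 WT and 47 cKO genes had 2 or more. Overlap calls changed for 19 of 315 named peaks under the centre rule and for 2 when a peak had to share 50% of the shorter interval. The width, score, distance, model and equal-number settings admit different peaks, and the overlap rules change what counts as an overlap. No other cause was tested.

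Read depth is unknown, no replicate measures the spread between libraries of 1 genotype, and the score has no stated meaning. A missing counterpart is therefore only a missing call.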

Other observations

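Several wide peaks lay inside T cell genes but were assigned to predicted models, so the gene lists did not count them. They were matched to the gene around them after their values had been seen. Intron 1 of Cd247, which encodes the zeta chain of the T cell receptor complex, held a peak of 2925 bp in WT and 2914 bp in cKO (chr1:165801182-165804106 in WT, mm10). Intron 1 of Prkcq, the theta form of protein kinase C, held peaks of 2700 and 2310 bp in WT and of 2673 and 2913 bp in cKO, the second being wider in cKO. Intron 1 of Il2ra held a second broad site, of 2321 bp in WT and 1860 bp in cKO. Intron 1 of Foxo1, a factor that sustains naive and Treg gene programmes, gave 2635 and 1859 bp.

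Ets1, a transcription factor gene of lymphocytes, held 2 broad WT peaks of 2394 and 1787 bp, with cKO counterparts of 1857 and 1691 bp. Another cKO peak, over exon 2 of Ets1, was 1965 bp wide and met 2 WT peaks, the more overlapping of 1116 bp. Ikzf2, the Helios gene, held WT peaks of 1813 and 1575 bp in intron 3 that met cKO peaks of 884 and 694 bp. Intron 3 of Lef1, a partner of beta-catenin, gave a broad peak in cKO only, 1634 bp against 1059 bp in WT. With the gene around the peak counted as well, T cell receptor and co-stimulation genes had 36 broad of 187 non-promoter peaks in WT (19.3%) and 17 of 97 in cKO (17.5%), beside 10.2% over all genes in either list. T cell transcription factors had 37 of 295 (12.5%) and 20 of 164 (12.2%), and Treg identity genes 14 of 126 (11.1%) and 7 of 56 (12.5%).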
